A study of Rattus norvegicus with 40 samples.

Results

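Interleukin-1, its antagonist, interleukin-6, tumour necrosis factor, 3 chemokines and the inducible cyclooxygenase were followed through ischemia and reperfusion in cultured rat heart muscle cells. The 9 genes, of 14217 named on the array, were Il1a, Il1b, Il1rn, Il6, Tnf, Cxcl1, Cxcl2, Ccl2 and Ptgs2, and every probe set annotated with 1 of these symbols alone was taken, which gave 11 of the 31042 probe sets on the array. The cells were isolated neonatal rat ventricular myocytes, in which ischemia was made by coverslip hypoxia, where a coverslip laid on the culture limits oxygen and medium. There were 10 groups: ischemia+reperfusion labelled 0, 10, 30, 60 and 120 min, and ischemia without reperfusion at the same 5 times. Each group held 4 arrays, made from 2 cell preparations with 2 duplicates of each. The labels do not give the length of reperfusion, what the minutes cover, or whether duplicates were separate cultures, so the p-values below measure the spread between these samples, which may be technical.

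IL-1 alpha and IL-1 beta bind the same receptor, which signals through MyD88 and the IRAK kinases to NF-kB, and IL-1ra, the product of Il1rn, occupies that receptor without signalling. NF-kB in turn drives transcription of Cxcl1 and Cxcl2, which attract neutrophils, of Ccl2, which attracts monocytes, of Il6, and of Ptgs2, the enzyme that commits arachidonic acid to prostaglandins. In the injured heart these products are known for recruiting leukocytes and for acting on the muscle cells themselves.

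The promoters of 5 of the members are shown because the data compare how far these genes moved together. Each window runs from 250 bases before to 50 bases after the annotated start, on the gene's strand, as given by RefSeq for the build GRCr8. Capitals mark matches to the NF-kB consensus, to the cyclic AMP response element TGACGTCA in Il6, and to the E-box CACGTG in Ptgs2. The Cxcl2 window is chr14:17467206-17467505 (minus strand), Cxcl1 chr14:17479272-17479571 (minus), Il6 chr4:5894526-5894825 (minus), Il1b chr3:137036532-137036831 (minus) and Ptgs2 chr13:64713813-64714112 (plus).
Cxcl2: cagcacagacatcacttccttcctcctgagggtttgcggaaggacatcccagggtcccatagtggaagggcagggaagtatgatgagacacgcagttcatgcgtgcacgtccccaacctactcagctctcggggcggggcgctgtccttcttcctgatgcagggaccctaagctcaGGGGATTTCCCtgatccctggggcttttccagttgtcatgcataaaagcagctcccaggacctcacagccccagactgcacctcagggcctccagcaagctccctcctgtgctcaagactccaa
Cxcl1: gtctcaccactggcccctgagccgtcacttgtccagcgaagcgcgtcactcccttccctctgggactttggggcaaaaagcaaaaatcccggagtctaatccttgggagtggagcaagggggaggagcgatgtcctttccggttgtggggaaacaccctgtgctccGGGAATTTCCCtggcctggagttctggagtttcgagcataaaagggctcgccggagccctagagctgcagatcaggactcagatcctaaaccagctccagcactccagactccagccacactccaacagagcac
Il6: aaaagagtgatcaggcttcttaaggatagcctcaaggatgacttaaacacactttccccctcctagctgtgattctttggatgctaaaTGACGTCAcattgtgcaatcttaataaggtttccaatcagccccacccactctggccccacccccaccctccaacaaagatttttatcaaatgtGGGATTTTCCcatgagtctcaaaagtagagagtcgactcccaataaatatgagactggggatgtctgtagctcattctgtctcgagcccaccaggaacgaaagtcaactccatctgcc
Il1b: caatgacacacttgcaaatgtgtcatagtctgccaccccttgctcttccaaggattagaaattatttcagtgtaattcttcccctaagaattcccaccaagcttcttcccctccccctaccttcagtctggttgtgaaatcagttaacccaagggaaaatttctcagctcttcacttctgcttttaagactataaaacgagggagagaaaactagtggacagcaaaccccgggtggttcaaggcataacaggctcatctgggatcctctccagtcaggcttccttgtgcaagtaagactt
Ptgs2: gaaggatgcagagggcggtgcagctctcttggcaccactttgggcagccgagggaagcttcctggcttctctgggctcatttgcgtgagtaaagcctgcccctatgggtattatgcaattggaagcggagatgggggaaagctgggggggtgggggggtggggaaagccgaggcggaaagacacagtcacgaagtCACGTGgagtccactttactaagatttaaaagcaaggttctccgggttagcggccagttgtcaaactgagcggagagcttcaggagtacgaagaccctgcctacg
Both strands were searched. The NF-kB consensus was found in 3 of the 8 members with a window in the table, and in 7.51% of all 33469 windows. In Cxcl2 it lay 74 to 64 bases before the start and in Cxcl1 84 to 74 bases before it, with overlapping matches on both strands in either gene, and in Il6 it lay 68 to 59 bases before the start. TGACGTCA lay 162 to 155 bases before the Il6 start and occurs in 1.83% of windows, and CACGTG lay 55 to 50 bases before the Ptgs2 start and occurs in 6.42%. The AP-1 motif TGANTCA, in 7.33% of windows, had a match in the Il1a window, which is not printed. No match to these letters was found in the Il1b window. A match is a description of the letters and was not tested as a binding site. Ccl2 has no entry in the table.

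Intensities are given after quantile normalization of the 40 arrays. The 4 values of a group are given as duplicates 1 and 2 of preparation 1, then duplicates 1 and 2 of preparation 2. Changes are differences in log2(intensity + 16), given with the standard error (SE) from a limma fit with n = 2 preparations per group, with p-values adjusted, comparison by comparison, for all 18625 tested probe sets. All 10 groups share 1 estimate of the spread per probe set, made after duplicates were averaged. The SE therefore does not follow the spread of the arrays at 120 min. A probe set was tested when its mean log2 value lay above 6.48. Of the 11 member probe sets 8 were tested, for 7 genes, and the 3 that were not, of Il1rn and Tnf, are described by their values. All 8 would also have passed the filter on the arrays other than those of 120 min, Il1a 1368592_at with a mean of 6.50 only just.

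Array medians before normalization ran from 101 to 171, and duplicates of a group and preparation correlated by 0.881 to 0.989 over the tested probe sets. By centred values over the tested probe sets, 21 of the 40 arrays had a higher correlation with some other group than with their own, 7 of them by more than 0.1. The widest gap, 0.11 with its own group and 0.43 with the nearest, was that of ischemia+reperfusion at 10 min, preparation 2, duplicate 1. A pair of arrays at 120 min was out of place by correlation and also by Hspa1a. The ischemia+reperfusion array of preparation 2, duplicate 1, correlated by 0.14 with its own group and by 0.44 with 120 min of ischemia, and the ischemia array of preparation 2, duplicate 2, by 0.09 with its own group and by 0.29 with 60 min of ischemia+reperfusion. Hspa1a, the inducible heat shock protein 70, had an intensity of 847 on the ischemia+reperfusion array of the pair and 8156 to 9726 on the other 3 arrays of that group. It had 9043 on the ischemia array of the pair and 773 to 1156 on the other 3 of that group. The 0 min ischemia array of preparation 1, duplicate 1, stood apart in level: its correlations with other arrays had a median of 0.924, against at least 0.974 for each of the rest. No array was moved to another group, and results at 120 min are also given without the pair.

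The cells carried the markers of their label: all 11 cardiomyocyte markers with a probe set passed the filter, with mean intensities of 2777 to 13811. Markers of other cells were present as well. Of 15 macrophage and leukocyte markers 13 passed the filter, led by Lyz2 (mean intensity 3023), Fcer1g and Cd14, while Cd163 was at the floor of 0 on all 40 arrays and Itgam on 36. None of the 3 neutrophil markers with a probe set passed it. S100a9 was at the floor on 39 arrays, while S100a8 and Csf3r, with mean intensities of 23.4 and 46.8, were at the floor on 0. In cultures of this kind a change in the number of cells of a type and a change in RNA per cell cannot be told apart.

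Most calls of the members came at 120 min, although in ischemia Il6 and Ptgs2 stood near their 120 min level earlier. At 120 min against 0 min, 6 of the 8 tested member probe sets rose in ischemia+reperfusion, where 3.5% of all tested probe sets rose, and 7 of the 8 rose in ischemia, where 6.45% did. In both arms these were 6 genes (Il1a, Il1b, Il6, Cxcl1, Cxcl2 and Ptgs2), and Ccl2 did not pass in either. The median change over the 7 genes was 1.07 log2 units in ischemia+reperfusion and 1.03 in ischemia, where the medians over all tested probe sets were -0.02 and 0.00.

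Fewer passed before that. In ischemia, Il6 had a change of 0.90 at 30 min and 0.90 at 120 min, and Ptgs2 0.91 at 60 min and 1.03 at 120 min, of which those at 120 min passed. In ischemia+reperfusion 0 of the 8 rose at 10 min (0.0215% of all tested), 1 at 30 min (0.408%) and 3 at 60 min (2.19%). In ischemia 0 rose at 10 min (1.14%), 0 at 30 min (0.0698%) and 1 at 60 min (0.0859%). Beside the counts of 0, 2 member probe sets had an unadjusted p under 0.05 in limma at 10 min of ischemia+reperfusion, 3 at 10 min of ischemia and 5 at 30 min of ischemia, all without a call. None of the 8 fell in any of these comparisons. At 120 against 60 min, 0 of 8 rose in ischemia+reperfusion (0% of all tested, with 6 of the 8 at an unadjusted p under 0.05 in limma) and 3 rose in ischemia (1.54%).

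**Figure D1:**
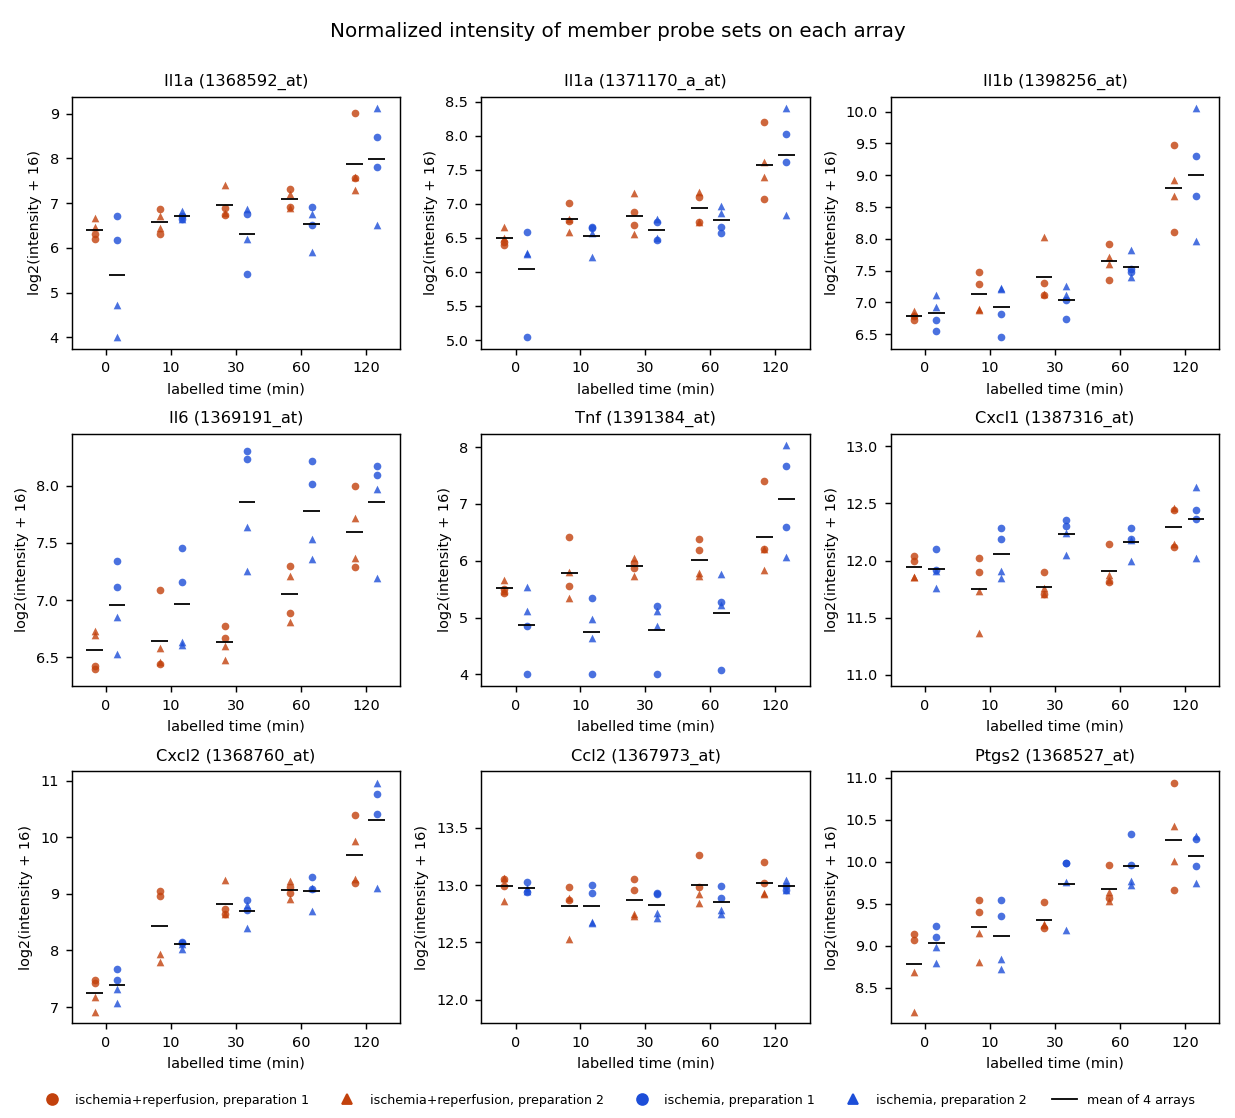
Log2(intensity + 16) of 8 tested member probe sets and of Tnf 1391384_at on every array (vertical axes) by labelled time in min (horizontal axes), with ischemia+reperfusion in orange left of ischemia in blue, circles for preparation 1, triangles for preparation 2 and bars for the mean of 4 arrays. Il1b and Cxcl2 are highest at 120 min in both arms, Ccl2 keeps to 5896 to 9768 in intensity on all 40 arrays, and Il6 at 30 min is higher on every ischemia array than on every ischemia+reperfusion array.

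Il1b, the gene of the secreted IL-1 beta, rose in both arms. At 120 min of ischemia+reperfusion it read 258, 694, 392 and 468, against 89.6, 93.9, 100 and 95.3 at 0 min. At 120 min of ischemia it read 391, 614, 1045 and 233, against 89.2, 77.5, 106 and 122 at 0 min. In each arm the lowest array at 120 min lay above the highest at 0 min. The rise was 2.00 ± 0.19 log2 units in ischemia+reperfusion (adjusted p = 0.0019) and 2.17 ± 0.19 in ischemia (adjusted p = 0.00048), and it was 2.03 and 1.97 within preparations 1 and 2 of ischemia+reperfusion, and 2.35 and 1.99 within those of ischemia. Without the pair of arrays it was 2.06 ± 0.26 in ischemia+reperfusion and 2.69 ± 0.26 in ischemia.

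At 60 min Il1b read 147, 225, 193 and 178 in ischemia+reperfusion, a rise of 0.85 ± 0.19 (adjusted p = 0.034), with no overlap with 0 min. It read 167, 161, 210 and 153 at 60 min of ischemia, again all above the 0 min arrays, with a change of 0.73 ± 0.19 that did not pass (adjusted p = 0.15). The 60 min call in ischemia+reperfusion had an adjusted p of 0.054 without the preparation block and 0.084 without the pair. Between 60 and 120 min of ischemia Il1b rose by a further 1.44 ± 0.19 (adjusted p = 0.0096), which became 0.92 (adjusted p = 0.12) without the 120 min ischemia array of preparation 2, duplicate 1. In ischemia+reperfusion the same step was 1.15 ± 0.19 and did not pass (adjusted p = 0.16).

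Il1a, the gene of the largely cell-bound IL-1 alpha, has 2 probe sets, both dim. On 1371170_a_at the 120 min arrays of ischemia+reperfusion read 118, 278, 152 and 180, against 70.8, 68.3, 74.3 and 84.9 at 0 min. The 120 min arrays of ischemia read 179, 243, 323 and 98.6, against 16.8, 80.1, 60.8 and 61.4 at 0 min. Neither arm overlapped with its 0 min arrays, and the rise was 1.07 ± 0.15 in ischemia+reperfusion (adjusted p = 0.0064) and 1.68 ± 0.15 in ischemia (adjusted p = 0.00054). Without the 0 min ischemia array that stands apart, which held the value of 16.8, the rise in ischemia was 1.29 ± 0.13.

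The other Il1a probe set, 1368592_at, gave the same direction with more scatter. It read 174, 499, 142 and 175 at 120 min of ischemia+reperfusion, against 63.6, 57.2, 84.8 and 72.2 at 0 min, with no overlap but no call (1.46 ± 0.47, adjusted p = 0.088). It read 209, 341, 542 and 75.7 at 120 min of ischemia, against 89.0, 55.8, -0.629 and 10.5 at 0 min, a rise of 2.58 ± 0.47 (adjusted p = 0.0095) with overlap in 1 array of the pair. That change was 1.71 within preparation 1 and 3.46 within preparation 2, which held the lowest 0 min values, and it was 1.68 with a pseudocount of 64. From 60 to 120 min of ischemia 1371170_a_at rose by 0.95 ± 0.15 (adjusted p = 0.019), which became 0.56 (adjusted p = 0.22) without the 120 min ischemia array of preparation 2, duplicate 1.

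Il1rn, the receptor antagonist, was at the floor on 30 of the 40 arrays, with intensities of -152 to 83.0, and was not tested. Its highest values, 60.1 and 83.0, were those of preparation 1 at 10 min of ischemia+reperfusion, where preparation 2 read -19.3 and -26.6. Other members were also higher in preparation 1 than in preparation 2 of that group. In log2 units these were Cxcl2 (9.01 against 7.87), Ptgs2 (9.48 against 8.98), Il1b (7.38 against 6.89) and Cxcl1 (11.96 against 11.55). Il1a 1368592_at was level (6.59 against 6.58).

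**Figure D2:**
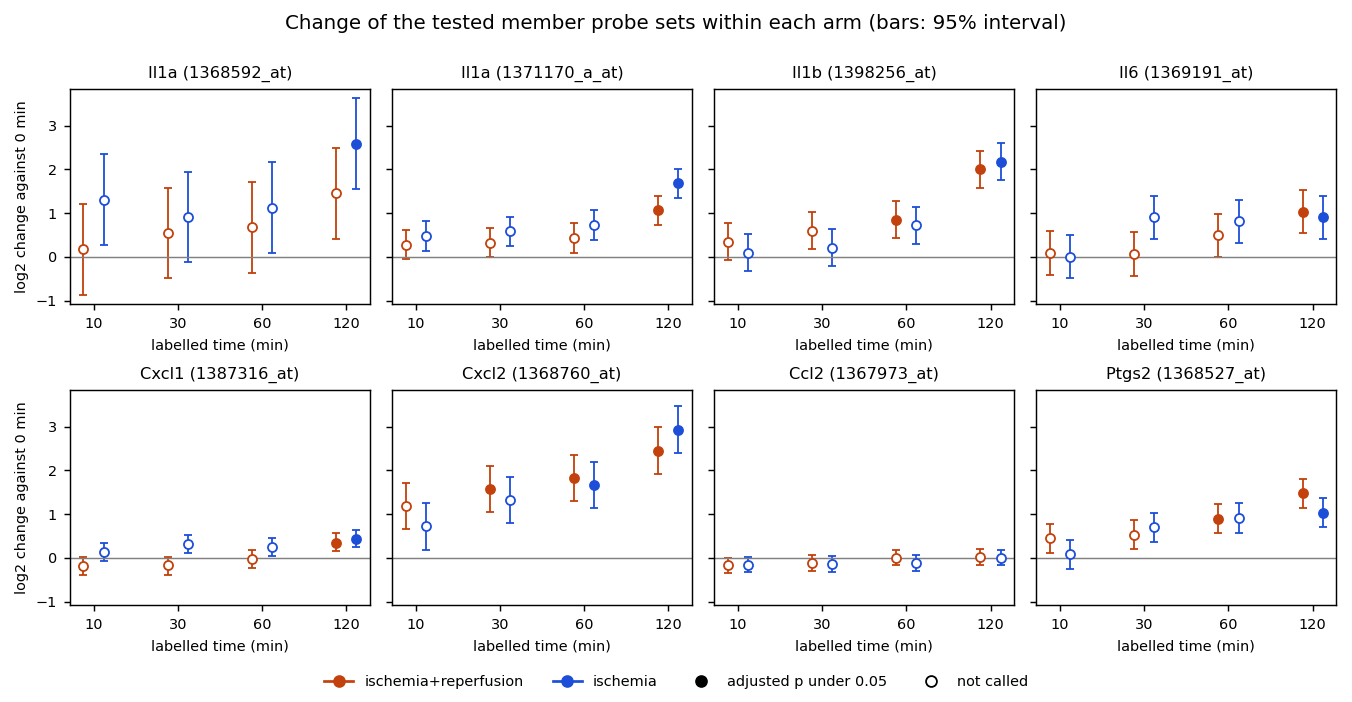
Log2 change against 0 min of the same arm (vertical axes, with 95% intervals) of the 8 tested member probe sets at 10, 30, 60 and 120 min (horizontal axes), with ischemia+reperfusion in orange left of ischemia in blue and filled points for an adjusted p under 0.05. The 120 min points are filled in both arms for 6 genes, Cxcl2 is also filled at 30 min of ischemia+reperfusion and at 60 min of both arms, and all intervals of Ccl2 lie close to 0.

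Il6, a cytokine of the acute phase response, rose in both arms at 120 min. In ischemia+reperfusion its arrays read 68.5 to 90.2 at 0 min, 71.0 to 121 at 10 min, 73.0 to 93.1 at 30 min, 96.4 to 141 at 60 min and 141 to 239 at 120 min. In ischemia they read 76.5 to 146 at 0 min, 81.4 to 159 at 10 min, 137 to 298 at 30 min, 148 to 280 at 60 min and 130 to 272 at 120 min. The 30 and 60 min arrays of ischemia thus lay as high as those of 120 min, while those of ischemia+reperfusion at 30 min lay within the range of 10 min. At 120 against 0 min, Il6 rose by 1.03 ± 0.23 in ischemia+reperfusion (adjusted p = 0.025), with no overlap of the arrays, and by 0.90 ± 0.23 in ischemia (adjusted p = 0.027), with overlap. Its changes at 30 and 60 min of ischemia, 0.90 ± 0.23 and 0.82 ± 0.23, did not pass (adjusted p = 0.14 and 0.16). Without the preparation block the adjusted p at 120 min was 0.089 in ischemia+reperfusion and 0.097 in ischemia. Leaving out the ischemia+reperfusion array of preparation 1, duplicate 2, gave 0.86 (adjusted p = 0.062), and leaving out the ischemia array of preparation 2, duplicate 1, gave 0.70 (adjusted p = 0.099).

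Tnf, the cytokine that shares much of the NF-kB response with IL-1, has 2 probe sets, both below the filter. Tnf 1387691_at was at the floor on 29 of 40 arrays. Tnf 1391384_at read 58.1, 153, 40.9 and 58.0 at 120 min of ischemia+reperfusion, against 27.2, 29.4, 34.4 and 28.0 at 0 min, and 81.3, 187, 246 and 51.2 at 120 min of ischemia, against 12.8, -1.29, 30.6 and 18.8 at 0 min. All 120 min arrays lay above all 0 min arrays of their arm. In a fit of all 31042 probe sets without the filter, the change of this probe set was 0.90 ± 0.37 in ischemia+reperfusion (adjusted p = 0.23) and 2.22 ± 0.37 in ischemia (adjusted p = 0.012), and from 60 to 120 min of ischemia 2.01 ± 0.37 (adjusted p = 0.035). On 1387691_at the 0 min ischemia arrays read -22.3 to 79.8, with 1 of 4 at the floor. Those of 120 min read -81.3 to 28.6, with 3 at the floor. In the same fit its change at 120 min was 0.28 ± 0.39 in ischemia+reperfusion (adjusted p = 0.83) and -1.40 ± 0.39 in ischemia (adjusted p = 0.056). The 2 Tnf probe sets thus went in opposite directions in ischemia. Values at the floor have no order, which limits the changes of 1387691_at.

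Cxcl2, a neutrophil chemokine known as MIP-2, passed at more times than any other member and had the largest change of the 8 tested probe sets at 120 min in both arms. In ischemia+reperfusion its arrays read 163, 155, 128 and 105 at 0 min, 519, 481, 208 and 228 at 10 min, and 385, 411, 592 and 383 at 30 min. They then read 540, 498, 582 and 464 at 60 min and 568, 1329, 965 and 603 at 120 min. No array from 10 min on overlapped with 0 min. The rise passed at 30 min (1.57 ± 0.24, adjusted p = 0.017), at 60 min (1.82 ± 0.24, adjusted p = 0.0072) and at 120 min (2.45 ± 0.24, adjusted p = 0.0019).

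At 10 min of ischemia+reperfusion the 2 preparations were apart for Cxcl2: the difference from 0 min was 1.56 in preparation 1 and 0.83 in preparation 2, and the change of 1.19 ± 0.24 did not pass (adjusted p = 0.084). The array of preparation 2, duplicate 1, lay nearest to the 0 min arrays of its arm, by 0.43 against 0.11 for its own group, and without it the change was 1.22 (adjusted p = 0.027). At 30 min the array of the same preparation and duplicate, with the highest Cxcl2 value, lay nearest to 60 min, by 0.34 against 0.14, and without it the rise was 1.42 (adjusted p = 0.018). Without the block the 30 min call had an adjusted p of 0.054.

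In ischemia Cxcl2 read 162, 187, 143 and 120 at 0 min, 265, 269, 262 and 245 at 10 min, and 406, 459, 430 and 323 at 30 min. It then read 526, 616, 535 and 396 at 60 min and 1341, 1733, 1992 and 537 at 120 min. Every step up to 60 min was seen in both preparations, and no array from 10 min on overlapped with 0 min. The rise passed at 60 min (1.66 ± 0.24, adjusted p = 0.029, and 0.08 in the fit with no block) and at 120 min (2.93 ± 0.24, adjusted p = 0.00047). From 60 to 120 min it was 1.27 ± 0.24 (adjusted p = 0.029), with 0.07 without the block, and leaving out duplicate 1 of preparation 2 at 120 min gave 0.81 (adjusted p = 0.20). The lowest 120 min array, 537, was the ischemia array of the pair out of place, and without the pair the 120 min rise was 2.29 ± 0.28 in ischemia+reperfusion and 3.39 ± 0.28 in ischemia.

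Cxcl1, the chemokine known as KC or CINC-1 that shares the receptor of Cxcl2, was bright at 0 min and had small rises. It read 4437, 5549, 5624 and 4502 at 120 min of ischemia+reperfusion, against 4189, 4087, 3689 and 3708 at 0 min, and 5553, 5254, 6380 and 4127 at 120 min of ischemia, against 4382, 3853, 3836 and 3448 at 0 min. The rise was 0.35 ± 0.09 in ischemia+reperfusion (adjusted p = 0.046) and 0.44 ± 0.09 in ischemia (adjusted p = 0.015). Without the block the adjusted p was 0.19 in ischemia+reperfusion and 0.072 in ischemia, without the pair 0.19 and 0.0096, and on the deposited scale, where the medians of all tested probe sets were -0.12 and -0.22, the changes were 0.21 (adjusted p = 0.33) and 0.24 (adjusted p = 0.14). The 120 min arrays lay above those of 0 min without overlap in ischemia+reperfusion, and 1 ischemia array of the pair overlapped. In ischemia+reperfusion the call was also lost, at 0.27 to 0.35, without any of 4 single arrays: duplicate 2 of preparation 1 or duplicate 1 of preparation 2, at 120 or at 0 min. In ischemia it was lost without the 120 min array of preparation 2, duplicate 1 (0.29, adjusted p = 0.093).

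Ccl2, the monocyte chemokine known as MCP-1, was in the 99.2nd percentile of mean level among all probe sets of the array and passed in no comparison. It read 8294, 9410, 7797 and 7745 at 120 min of ischemia+reperfusion, against 8142, 8483, 7408 and 8540 at 0 min, and 8102, 7955, 7943 and 8386 at 120 min of ischemia, against 8360, 7824, 8027 and 7899 at 0 min. The changes at 120 min were 0.03 ± 0.08 in ischemia+reperfusion (adjusted p = 0.89; 95% interval -0.15 to 0.20) and 0.01 ± 0.08 in ischemia (adjusted p = 0.93; 95% interval -0.16 to 0.19).

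Ptgs2, the inducible cyclooxygenase, rose in both arms. It read 798, 1952, 1350 and 1012 at 120 min of ischemia+reperfusion, against 523, 546, 396 and 282 at 0 min, and 972, 1220, 1241 and 845 at 120 min of ischemia, against 533, 587, 493 and 430 at 0 min. Neither arm overlapped with its 0 min arrays, and the highest value of all 40 arrays was that of ischemia+reperfusion, preparation 1, duplicate 2. The rise at 120 min was 1.48 ± 0.15 in ischemia+reperfusion (adjusted p = 0.0021) and 1.03 ± 0.15 in ischemia (adjusted p = 0.0049). Without the pair and that array, which was picked for its high member values, it was 1.06 ± 0.22 (adjusted p = 0.018) and 1.17 ± 0.22 (adjusted p = 0.0088).

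At 60 min Ptgs2 read 745, 979, 723 and 780 in ischemia+reperfusion, a rise of 0.89 ± 0.15 (adjusted p = 0.013, or 0.10 without the block). In ischemia it read 980, 1268, 860 and 830, all above the 0 min arrays, and the change of 0.91 ± 0.15 had an adjusted p of 0.054. That value sat at the threshold: leaving out duplicate 1 of preparation 2 at 0 min gave an adjusted p of 0.039, and leaving out duplicate 1 or 2 of preparation 2 at 60 min gave 0.048 or 0.043. At 30 min Ptgs2 read 574 to 720 in ischemia+reperfusion and 566 to 1002 in ischemia, with changes of 0.53 ± 0.15 and 0.70 ± 0.15 that did not pass (adjusted p = 0.14 and 0.11).

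Between the arms at equal time, Il6 at 30 min was the 1 member probe set that passed, of 8 tested. It read 86.1, 93.1, 81.0 and 73.0 at 30 min of ischemia+reperfusion, against 284, 298, 184 and 137 at 30 min of ischemia. Every ischemia+reperfusion array lay below every ischemia array, by -1.23 ± 0.23 log2 units (adjusted p = 0.044), and by -1.54 and -0.91 within preparations 1 and 2. At this time 0.532% of all tested probe sets differed between the arms in either direction. The call was close to the threshold: the adjusted p was 0.12 without the block, 0.072 on the deposited scale, 0.064 with no filter and 0.056 without the 30 min ischemia array of preparation 2, duplicate 1 (-1.13).

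The arms were also apart for Il6 at 0 min in preparation 1. Its 2 arrays read 68.5 and 69.5 in ischemia+reperfusion, against 122 and 146 in ischemia, while preparation 2 read 87.5 and 90.2, against 99.2 and 76.5. The difference at 0 min was -0.40 ± 0.23 (adjusted p = 0.38), and taking it away by the interaction left -0.83 ± 0.32 at 30 min (adjusted p = 0.82). At 60 min Il6 read 103, 141, 96.4 and 132 in ischemia+reperfusion, against 241, 280, 168 and 148 in ischemia, a difference of -0.72 ± 0.23 that did not pass (adjusted p = 0.086).

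Cxcl1 was also lower on every ischemia+reperfusion array at 30 min, without a call. It read 3332, 3793, 3446 and 3339 in ischemia+reperfusion, against 5034, 5220, 4830 and 4213 in ischemia, a difference of -0.47 ± 0.09 (adjusted p = 0.055). The adjusted p was 0.042 without the 30 min ischemia array of preparation 1, duplicate 1, or of preparation 2, duplicate 2, and 0.043 without the ischemia+reperfusion array of preparation 2, duplicate 1. Against 0 min, the change of Cxcl1 at that time was -0.17 ± 0.09 in ischemia+reperfusion and 0.31 ± 0.09 in ischemia (adjusted p = 0.44 and 0.19), and the interaction was -0.48 ± 0.13 (adjusted p = 0.74). Ptgs2 at 30 min had a difference of -0.42 ± 0.15 that did not pass (adjusted p = 0.21).

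**Figure D3:**
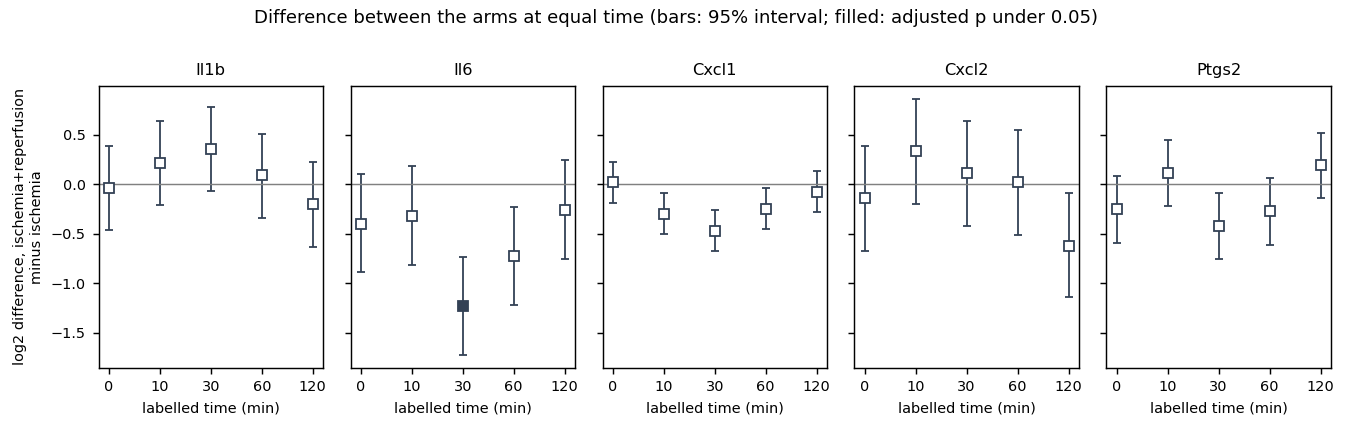
Log2 difference of ischemia+reperfusion minus ischemia (vertical axes, with 95% intervals) at each labelled time in min (horizontal axes) for Il1b, Il6, Cxcl1, Cxcl2 and Ptgs2, with filled points for an adjusted p under 0.05. Il6 at 30 min (-1.23) is the filled point, and Il6, Cxcl1 and Ptgs2 have their lowest values at 30 min.

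At the other times no member probe set passed between the arms. The count was 0 of 8 at 0 min (0.333% of all tested probe sets in either direction), 0 of 8 at 10 min (0%), 0 of 8 at 60 min (5.38%) and 0 of 8 at 120 min (0%). Beside these counts, 1, 1, 2 and 1 of the 8 had an unadjusted p under 0.05 in limma. The interaction, which compares the changes since 0 min, was passed by 0 of 8 at 10, 30, 60 and 120 min (0% of all tested at each), with 1, 2, 0 and 1 of the 8 at an unadjusted p under 0.05. Those at 10, 30 and 60 min were added after the values had been seen.

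The comparison of the arms at 120 min gave another call for Cxcl2 when the 2 arrays out of place were left out. With all arrays the difference was -0.62 ± 0.24 for Cxcl2 (adjusted p = 0.66), -0.20 ± 0.19 for Il1b (adjusted p = 0.92) and -0.15 ± 0.15 for Il1a 1371170_a_at (adjusted p = 0.93). Without the pair Cxcl2 was lower in ischemia+reperfusion by -1.25 ± 0.28 (adjusted p = 0.036). It was the 1 call among the 8, where 3.59% of all tested probe sets passed, against 0% with all arrays. The pair was picked for lying close to the other arm, and leaving out such arrays can by itself widen the difference between the arms. The call is therefore no separate evidence on the arms. Why the pair lay out of place was not tested. The interaction for Cxcl2 was -0.48 ± 0.34 with all arrays (adjusted p = 0.62) and -1.11 ± 0.39 without the pair (adjusted p = 0.19).

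Other genes of the same pathways were counted over a list of 73 genes, 69 of them with a probe set and 47 tested. At 120 against 0 min 6 of the 47 rose in ischemia+reperfusion, where 3.5% of all tested probe sets rose, and 8 in ischemia, where 6.45% did. None of the 47 fell, where 685 of all 18625 tested probe sets fell in ischemia+reperfusion and 1206 in ischemia, and the medians were 0.01 and 0.05. Between the arms at 120 min 0 of the 47 passed (0% of all tested), with differences of -0.36 to 0.61. The interaction was also passed by 0 of the 47 (0%). A gene below that passed in 1 arm alone was thus not shown to differ between the arms. Among 12 other chemokines and receptors, 3 rose in ischemia+reperfusion and 5 in ischemia, with a median of 0.38 in both arms.

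The chemokines Ccl3 and Ccl4 (MIP-1 alpha and beta), which attract monocytes and T cells, rose in both arms. Ccl4 rose by 1.07 ± 0.24 in ischemia+reperfusion (adjusted p = 0.026) and 1.05 ± 0.24 in ischemia (adjusted p = 0.019), and Ccl3 by 0.54 ± 0.10 (adjusted p = 0.016) and 0.39 ± 0.10 (adjusted p = 0.032), each with overlap between 120 and 0 min arrays. Ackr3, a receptor that scavenges the chemokine Cxcl12, rose by 1.07 ± 0.17 in ischemia+reperfusion (adjusted p = 0.011) and 0.93 ± 0.17 in ischemia (adjusted p = 0.011), without overlap. Cxcl3, a neutrophil chemokine close to Cxcl2, rose by 0.68 ± 0.15 in ischemia (adjusted p = 0.018). Cxcl16, a chemokine that also exists as a membrane protein, rose there by 0.37 ± 0.11 (adjusted p = 0.048). Neither passed in ischemia+reperfusion, and neither passed between the arms.

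In the IL-1 system 2 of 13 rose at 120 min of ischemia+reperfusion (3.5% of all tested) and 1 of 13 in ischemia (6.45%), where the count is near the share over all probe sets. Irak3, the IRAK family member that restrains the pathway, rose by 0.63 ± 0.12 in ischemia+reperfusion (adjusted p = 0.017) and 0.57 ± 0.12 in ischemia (adjusted p = 0.017). Il1rl1, the receptor of IL-33 (ST2), rose by 0.80 ± 0.14 in ischemia+reperfusion (adjusted p = 0.013). The signalling receptor Il1r1, with changes of 0.05 ± 0.13 in ischemia+reperfusion and 0.29 ± 0.13 in ischemia, and the decoy receptor Il1r2, with 0.60 ± 0.23 and 0.53 ± 0.23, passed in neither arm. At 60 min of ischemia+reperfusion Il1rl1 (0.57 ± 0.14), Ackr3 (0.86 ± 0.17) and Traf6, a ubiquitin ligase of the pathway (0.43 ± 0.10), were the 3 of 47 that rose (2.19% of all tested).

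Of 14 prostanoid genes, 1 rose in ischemia+reperfusion (3.5% of all tested) and 2 in ischemia (6.45%) at 120 min, with medians of -0.15 and -0.14. Counts this small lie near the shares over all probe sets. Ptges, the microsomal prostaglandin E synthase that takes the product of Ptgs2, rose by 1.29 ± 0.23 in ischemia+reperfusion (adjusted p = 0.014) and 0.82 ± 0.23 in ischemia (adjusted p = 0.040). Pla2g4a, the cytosolic phospholipase that releases arachidonic acid, rose by 0.30 ± 0.07 in ischemia (adjusted p = 0.020). Ptgs1, the constitutive cyclooxygenase, had changes of -0.01 ± 0.18 in ischemia+reperfusion and 0.19 ± 0.18 in ischemia that did not pass. None of the 8 tested genes of the TNF and IL-6 systems rose or fell at 120 min in either arm, a count near the shares over all probe sets. The TNF receptor Tnfrsf1a was higher in ischemia+reperfusion than in ischemia at 60 min, by 0.25 ± 0.06 (adjusted p = 0.036). It was the 1 call among the 47 listed genes there, where 5.38% of all tested probe sets differed in either direction.

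**Figure D4:**
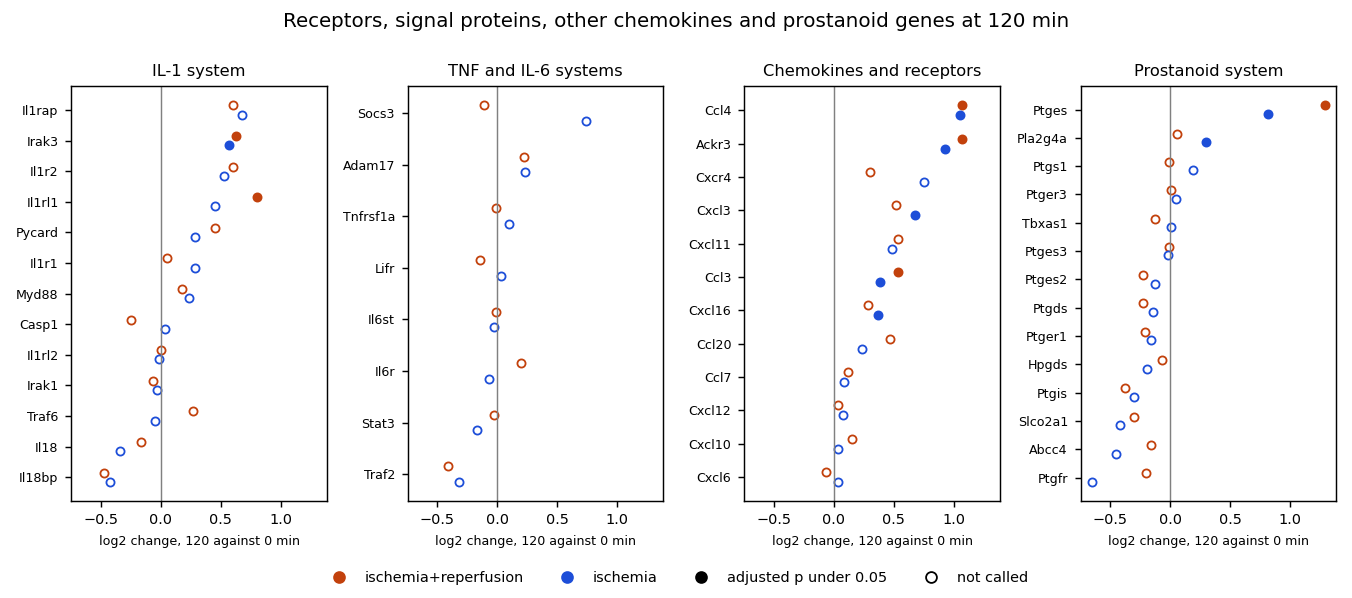
Log2 change at 120 against 0 min (horizontal axes) of 47 genes of the IL-1, TNF and IL-6, chemokine and prostanoid lists (rows, ordered by the change in ischemia), with ischemia+reperfusion in orange above ischemia in blue and filled points for an adjusted p under 0.05. Filled points stand for 6 genes in ischemia+reperfusion and 8 in ischemia, and Ptges reaches the highest value (1.29).

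Marker genes of other cells moved beside these changes in part. The summed intensity of the 15 macrophage and leukocyte markers was 9078 to 12025 at 120 min of ischemia+reperfusion, against 8833 to 10898 at 0 min. It was 9811 to 11242 at 120 min of ischemia, against 7950 to 9741 at 0 min, without overlap in ischemia. None of the 13 tested rose in either arm, and Mrc1 fell in ischemia+reperfusion at 120 min (-0.69 ± 0.16, adjusted p = 0.029). Among the 120 min arrays of ischemia+reperfusion, the array with the highest Il1b, 694, had the highest sum, 12025, and that with the lowest Il1b, 258, a sum of 11977. Among those of ischemia, the array with the highest Il1b, 1045, had the lowest sum, 9811, and the array with the lowest Il1b, 233, which is the one of the pair out of place, had the highest, 11242. Of 5 tested endothelial markers, Pecam1 (1.04 ± 0.24), Tie1 (0.52 ± 0.10) and Tek (0.33 ± 0.07) rose at 120 min of ischemia (6.45% of all tested). In ischemia+reperfusion 0 of 5 rose (3.5%). Between the arms at 120 min 0 of 5 passed (0%), with differences of -0.30 to -0.03, and 0 of 5 passed the interaction (0%). The sum of the 6 endothelial markers was 1903 to 2501 at 120 min of ischemia+reperfusion, against 1579 to 2171 at 0 min, and 1898 to 2672 at 120 min of ischemia, against 1475 to 2017 at 0 min.

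All 9 fibroblast markers passed the filter, with mean intensities up to 9610 (Col1a2). Their sum was 40865 to 45433 at 120 min of ischemia+reperfusion, against 37577 to 46640 at 0 min, and 41562 to 43737 at 120 min of ischemia, against 35243 to 40725 at 0 min, without overlap in ischemia. Of the 9, 1 fell at 120 min of ischemia+reperfusion, Tcf21 (-0.61 ± 0.16, adjusted p = 0.043), where 685 of all 18625 tested probe sets fell. In ischemia 1 of the 9 rose at 120 min, Pdgfra (0.45 ± 0.13, adjusted p = 0.039), where 6.45% of all tested rose. None of the 4 smooth muscle markers rose or fell at 120 min in either arm. Counts this small lie near the shares over all probe sets. The part of these cells in the members' changes was not tested.

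The members' profiles were alike in part. Over the 20 preparation averages, centred on each preparation, Il1b correlated by 0.90 with Cxcl2 and by 0.92 with Il1a 1371170_a_at, and Cxcl2 by 0.88 with Ptgs2. Il6 correlated by 0.85 with Cxcl1 and by 0.53 with Il1b, and Ccl2 by 0.05 to 0.39 with the other members. These values describe 20 averages in which the genes are read on the same arrays, and the 120 min groups are part of them. Among the other named genes with a tested probe set, Snai1 (0.951), Clk4 and Hnrnpa2b1 had the profiles most like that of Il1b, Rasd1 (0.920), Angptl4 and Nfkbia those most like that of Cxcl2, and Ereg (0.945), Cited2 and Col16a1 those most like that of Ptgs2. Genes below the filter were not searched.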

How the data were processed

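Biotin-labelled RNA was hybridised to 40 Affymetrix rat arrays, and the deposited values are 1 intensity per probe set and array on a linear scale, per the file headers. How the authors computed them is not given in the sources used here, and 15.8% were negative. They were quantile-normalized, floored at 0 and taken to log2(value + 16), which understates changes of dim probe sets. Probe sets above the 40th percentile of the mean log2 value (6.48, an intensity of 73.2) were tested, 18625 of 31042. Names came from the platform annotation, with 20826 probe sets of 1 symbol, 436 of several and 9780 unnamed there, and promoter windows from RefSeq (GRCr8).

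Duplicates were averaged, which gave 20 values. All 10 groups were fitted with limma 3.58.1 in R 4.3.3, with the preparation as a block and 9 residual degrees of freedom. P-values were two-sided and adjusted by Benjamini-Hochberg within each of 16 comparisons and 3 added interactions, and under 0.05 was a call. The median SE was 0.118 log2 units, a precision that the number of arrays limits. The block rests on the preparation named in the labels: between groups, the difference of preparation 2 from 1 had a median correlation of 0.18 (-0.18 to 0.53), over 0.1 in 34 of 45 pairs. No arrays held identical values. The fit was tested on simulated data.

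The members, the 73 pathway genes, the cell type markers and the tests were chosen with earlier results of these data known. Pathway genes are named if called against 0 min or between the arms. The genes of most alike profile are the highest Pearson correlations over the 20 averages. Alternatives were no block, arrays as samples, 2 other scalings, 2 pseudocounts, 2 filters, and arrays left out.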

Additional observations from a re-analysis of the deposited data

Results flagged for a closer look

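Among the 110 sets of 4 arrays that make up a member probe set in a group, 93 had at most 1 array at the floor and were searched for an array far from the other 3, and 2 were found, where chance alone would give about 4.7. Il1a 1368592_at on the ischemia+reperfusion array of 120 min, preparation 1, duplicate 2, had a log2 value of 9.01, and the other 3 arrays of the group had 7.30 to 7.58, a gap of 0.839 of the whole range. On the same array Il1b (694), Cxcl2 (1329), Tnf 1391384_at (153), Il6 (239) and Ptgs2 (1952) were also the highest of their group in intensity. Cxcl2 on the ischemia+reperfusion array of 30 min, preparation 2, duplicate 1, had a log2 value of 9.25, and the other 3 had 8.64 to 8.74, a gap of 0.841 of the range. What set these arrays apart was not tested.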

How the results depend on the processing

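The 22 called changes of member probe sets were recomputed under the alternatives, which gave 451 values: 42 kept the direction and lost the call, 0 reversed, and 409 kept the direction with the call or, for 44 values from 1 preparation alone, with no test. No replicate block cost 10 of the 22 calls, the deposited scale 9, no filter 5, the 2 sets of arrays left out at 120 min 2 and 3, single arrays 11 of 176 values, arrays as samples 1 and centring each array on its median 1. Pseudocounts of 64 and 4, and leaving out the 0 min ischemia array that stands apart, cost 0. Where a call was lost, the cause was not tested.

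Counts of called member probe sets moved as follows. With no replicate block they were 0 instead of 1 at 60 min of ischemia and at 30 min of ischemia+reperfusion, 1 instead of 3 at 60 min of ischemia+reperfusion, and 0 instead of 1 between the arms at 30 min. At 120 min against 0 min they were 4 instead of 6 in ischemia+reperfusion and 5 instead of 7 in ischemia, and from 60 to 120 min of ischemia 2 instead of 3. With arrays as samples, where the correlation of duplicates was 0.08, they were 2 instead of 0 at 30 min of ischemia, 3 instead of 1 at 60 min of ischemia, 1 instead of 0 at 10 min of ischemia+reperfusion, and 2 instead of 1 at 30 min and 1 instead of 0 at 60 min between the arms. In ischemia+reperfusion they were then 2 instead of 3 at 60 min and 7 instead of 6 at 120 min. From 60 to 120 min of ischemia they were 4 instead of 3. On the deposited scale, where the median of all probe sets lay at -0.12 at 120 min of ischemia+reperfusion and -0.22 at 120 min of ischemia, they were 0 at 60 min of ischemia, 1 instead of 3 from 60 to 120 min of ischemia, 1 at 10 min of ischemia+reperfusion and 0 between the arms at 30 min. They were also 4 instead of 6 at 120 min of ischemia+reperfusion, 5 instead of 7 at 120 min of ischemia and 2 instead of 3 at 60 min of ischemia+reperfusion. Median centring gave 2 at 60 min of ischemia, 5 at 120 min of ischemia+reperfusion, and 2 at 30 min and 1 at 60 min between the arms. A pseudocount of 64 gave 2 at 60 min of ischemia and 2 between the arms at 30 min. It also gave 4 from 60 to 120 min of ischemia and 7 at 120 min of ischemia+reperfusion. No filter, with all 11 member probe sets, gave 0 at 60 min and 4 from 60 to 120 min of ischemia. In ischemia+reperfusion it gave 2 at 60 min and 5 at 120 min. Between the arms it gave 0 at 30 min and 1 at 60 min, which was the Tnf probe set at the floor on 29 arrays. A filter at the 60th percentile, which keeps only 4 member probe sets, gave 3 at 120 min of either arm. It gave 1 from 60 to 120 min of ischemia and 2 at 60 min of either arm. Without the 0 min ischemia array that stands apart, 2 passed between the arms at 30 min. Without the pair out of place, 1 passed between the arms at 120 min, and 2 without the high ischemia+reperfusion array as well. The pair was picked for lying close to the other arm, and the high array for its high member values after they were seen. The 1 call and the 2 calls therefore support nothing about the arms. At 120 min against 0 min of ischemia+reperfusion 5 passed without the pair and 4 without the high array as well. At 60 min of ischemia+reperfusion 2 passed in either setting.

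With single arrays left out, the counts ran from 1 to 2 at 60 min of ischemia, 5 to 7 at 120 min of ischemia, 0 to 3 from 60 to 120 min of ischemia (0 without the 120 min array of preparation 2, duplicate 1), 0 to 1 at 10 min of ischemia+reperfusion, 4 to 6 at 120 min of ischemia+reperfusion and 0 to 2 between the arms at 30 min. The intensities carry no depth, and members near the floor, Il1rn and both Tnf probe sets, limit what can be said of them.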
